A study of Mus musculus with 26 samples.

Results

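The genes described here are 10 receptors that sense microbial products: the Toll-like receptor genes Tlr1, Tlr2, Tlr3, Tlr4, Tlr6, Tlr7, Tlr8, Tlr9 and Tlr13, and Cd14. They were picked by symbol, each matched to 1 Ensembl gene among the 52636 genes of the deposited files, and all 10 passed the filter on low counts in every comparison. The study asked what Prss57, the gene of neutrophil serine protease 4 (NSP4), does in myeloid progenitors and in the mast cells grown from them. Bulk RNA sequencing covered 26 mouse libraries in 6 groups: 4 wild-type (WT) and 4 Prss57-/- (KO) libraries each of granulocyte-macrophage progenitors (GMPs) and common myeloid progenitors (CMPs), and 5 WT and 5 KO libraries of bone marrow-derived mast cells (BMMCs). GMPs and CMPs were sorted from bone marrow as lineage-negative, SCA-1-negative, CD117+, CD34+ cells with high or low CD16/32, respectively, and BMMCs were grown from sorted GMPs with interleukin-3 and stem cell factor. The KO allele lacks exon 2 of Prss57, was made in C57BL/6N embryonic stem cells and is carried in the germline, and the WT mice were age-matched littermates, whose age is not given in the sources used here. The progenitors were taken from females and sequenced in 1 run, whereas the BMMCs derive from males and were sequenced in a second one. In any contrast of BMMCs with progenitors, cell type, culture, sex and run thus cannot be told apart. The labels number the libraries of a group but do not say whether they came from separate mice or cultures. The paper describes 4 GMP and 5 BMMC samples per genotype as biological replicates, without saying whether each was a separate mouse or culture. The p-values thus measure only the spread between these libraries.

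Toll-like receptors are membrane proteins with a leucine-rich ectodomain that binds the microbial product and a cytoplasmic TIR domain that recruits adaptor proteins. TLR4 binds lipopolysaccharide together with MD-2, the product of Ly96, and CD14 hands lipopolysaccharide to that pair and serves other receptors too. TLR2 pairs with TLR1 or TLR6 at the cell surface to recognise bacterial lipopeptides. TLR3, TLR7, TLR8, TLR9 and TLR13 read nucleic acids from within endosomes, which they reach with the help of the chaperone UNC93B1. MyD88 carries the signal of most of these receptors to IRAK kinases, TRAF6 and NF-kB. These receptors are best known from macrophages, dendritic cells and neutrophils, and mast cells are known to use several of them.

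Several of the receptor genes are neighbours on the genome (GRCm38, GENCODE M21). Tlr1 (chr5:64924679-64933563) and Tlr6 (chr5:64952031-64960097) lie 18467 bases apart on the reverse strand of chromosome 5, and Tlr7 (chrX:167304929-167330558) and Tlr8 (chrX:167242696-167264329) lie 40599 bases apart on the reverse strand of the X chromosome. Tlr13 (chrX:106143204-106160493, forward strand) is X-linked too. Tlr2 (chr3:83836272-83841767) and Tlr3 (chr8:45395665-45411080) are on the reverse strand, and Tlr4 (chr4:66827584-66930284) and Tlr9 (chr9:106222598-106226883) on the forward strand. RefSeq promoter sequences (GRCm38.p6) were searched for 7 of the 10 genes, in 9 windows of 250 bases before a transcript start. Cd14 was left out of this search, and no window was found for Tlr4 and Tlr7. The windows of Tlr8, whose RNA was among the most different between BMMCs and progenitors, and of Tlr9, which was not called between them, are shown as a pair, with the motif matches in capitals. They span chrX:167264330-167264579 (reverse strand) for Tlr8 and chr9:106222348-106222597 (forward strand) for Tlr9.
Tlr8: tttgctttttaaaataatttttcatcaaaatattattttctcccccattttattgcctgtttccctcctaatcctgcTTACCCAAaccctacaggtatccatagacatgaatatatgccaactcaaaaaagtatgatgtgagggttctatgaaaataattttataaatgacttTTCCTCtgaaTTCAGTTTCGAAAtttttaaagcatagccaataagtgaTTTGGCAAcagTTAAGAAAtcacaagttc
Tlr9: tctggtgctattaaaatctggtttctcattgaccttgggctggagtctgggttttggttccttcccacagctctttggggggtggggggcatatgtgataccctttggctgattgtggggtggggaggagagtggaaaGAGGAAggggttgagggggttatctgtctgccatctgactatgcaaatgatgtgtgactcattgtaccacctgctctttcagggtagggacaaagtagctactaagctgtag
Short motifs were searched on both strands, and matches of different motifs may overlap, and a stretch that matches on both strands was counted on each: GAGGAA, the core of sites for ETS factors such as PU.1; TTNCNNAA, of C/EBP type; and GAAANNGAA, of interferon response type. The Tlr8 window held 1 match of GAGGAA, 5 of TTNCNNAA and 1 of GAAANNGAA. The Tlr9 window held 1 of GAGGAA and none of the other motifs. So did the window of Tlr13, which had the largest log2 fold change of the 10 genes between WT BMMCs and either WT progenitor. Over all 9 windows, 4 held GAGGAA, 4 TTNCNNAA and 2 GAAANNGAA. Among 32851 promoter windows of that length, 23.3% held GAGGAA, 36.8% TTNCNNAA and 7.13% GAAANNGAA. A match is a run of letters and not a measured binding site.

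The libraries held 35501671 to 51497962 reads on genes in GMPs, 32078404 to 53264762 in CMPs and 18627626 to 28647216 in BMMCs. Prss57 had 18064 to 26556 reads in WT GMPs and 6 to 25 in KO GMPs, 2261 to 3926 in WT CMPs and 1 in each KO CMP library, and 2 to 27 in WT BMMCs and 0 in every KO BMMC library. Levels below are the normalized RPKM deposited by the authors (nRPKM, reads per gene length scaled by a size factor per library), which can be compared between genes. Summed nRPKM of 4 granule protein markers of GMPs (Mpo, Elane, Prtn3, Ctsg) was 29421 to 37128 in WT GMPs and 3817 to 8005 in WT CMPs. The 7 mast cell markers summed to 30833 to 46376 in WT BMMCs. The BMMC libraries also carried RNA of 6 macrophage markers (Adgre1, Mrc1, C1qa, C1qb, C1qc, Cd68), none of them at 0, with sums of 1136 to 1426 nRPKM in WT BMMCs against 34.7 to 37.3 in WT GMPs. KO BMMC library 3 stood apart: its macrophage sum was 131 against 1136 to 1778 in the other 9 BMMC libraries, and its mast cell sum was 74640.3 against 24887 to 46376. Results on BMMCs are therefore given with and without it. In bulk libraries such as these, fewer cells of a type and less RNA per cell cannot be told apart.

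The receptor genes were expressed at low levels in both progenitors, and most of them, though not Tlr9, at higher levels in WT BMMCs. In WT CMPs only Tlr2, at 6.62 ± 1.18 (SD, n = 4), lay above and apart from the rest, and the others had means of 0.0445 (Tlr13) to 1.61 nRPKM (Tlr6). Within these, Tlr6, Tlr4, Cd14, Tlr9, Tlr7 and Tlr1 each overlapped with the next in order, and Tlr8, Tlr3 and Tlr13 lay below them and overlapped. In WT GMPs Tlr2 and Cd14 led, at 8.19 ± 0.585 (SD, n = 4) and 6.70 ± 1.72 (SD, n = 4), with overlapping ranges. Below them came Tlr6 and Tlr4, which overlapped, then Tlr1 and Tlr9, which overlapped, and at the bottom Tlr7, Tlr8 and Tlr13, with Tlr3 below all of these. In WT BMMCs the order was Cd14, Tlr2, then Tlr13, Tlr4 and Tlr8, then Tlr7, Tlr6 and Tlr1, then Tlr9 and Tlr3, where the genes within each of these sets overlapped with their neighbours and the sets did not overlap. KO GMPs and KO CMPs were also led by Tlr2, and KO BMMCs without library 3 by Cd14 and then Tlr2 and Tlr13.

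**Figure D1:**
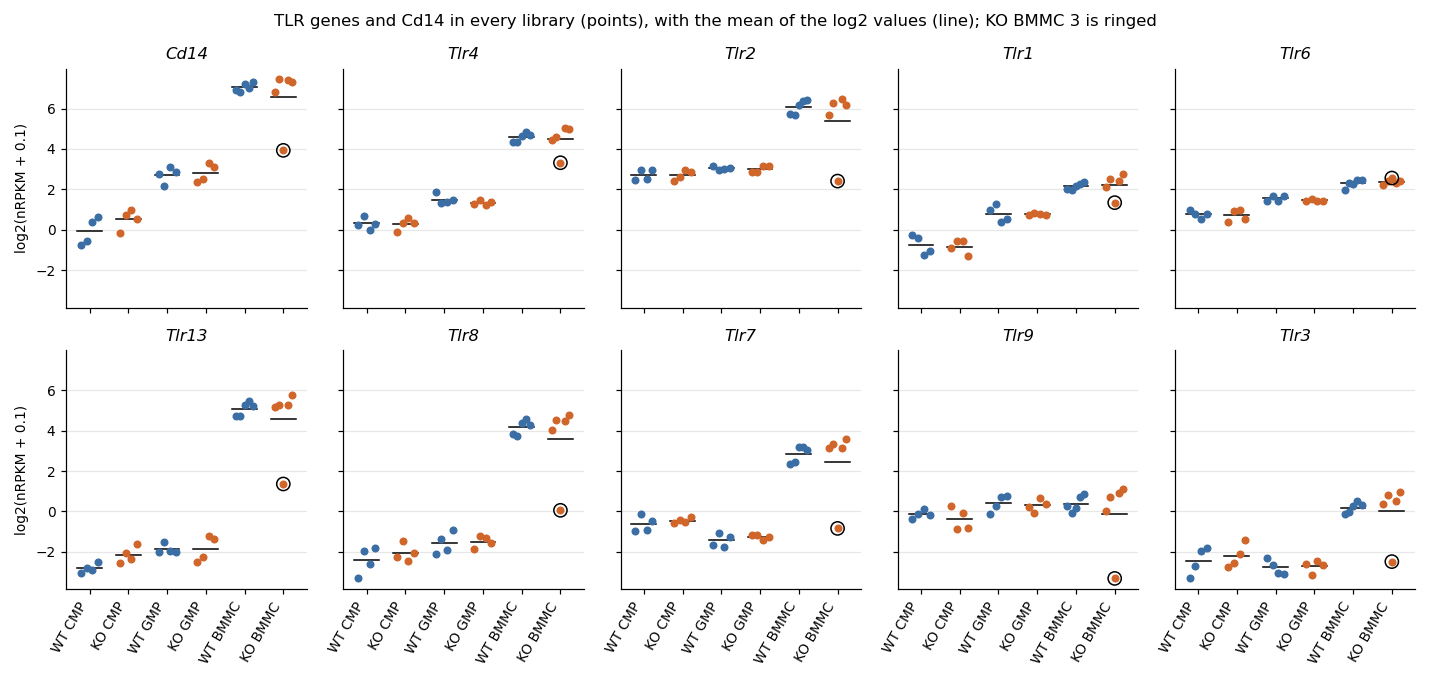
Each panel plots log2(nRPKM + 0.1) of 1 gene in all 26 libraries by group (blue for WT, orange for KO), with a line at the group mean of the log2 values and a ring around KO BMMC library 3. All genes but Tlr9 sit higher in WT BMMCs than in either WT progenitor, Cd14, Tlr1, Tlr4 and Tlr6 step up from CMPs to GMPs, and KO BMMC library 3 lies far below the other BMMC libraries in most panels but not in that of Tlr6.

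The first comparison asked how the receptors differ between GMPs and CMPs. Of the 10 genes, 4 rose from WT CMPs to WT GMPs (Cd14, Tlr13, Tlr1 and Tlr4) and none fell, where a call needed at least a 2-fold change and an adjusted p (Benjamini-Hochberg, all genes tested) under 0.01 from the quasi-likelihood test of edgeR. By the same rule 12.8% of all genes tested were called and 6.28% were called as higher in GMPs. In the KO libraries, 3 of the 10 rose (Cd14, Tlr1 and Tlr4), against 8.42% of all genes called and 4.04% called as higher in GMPs. The median log2 fold change of the 10 genes was 1.05 in WT and 0.75 in KO libraries, where that of all genes tested was -0.02 and -0.03. The WT and KO contrasts share no library.

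Cd14, the co-receptor for lipopolysaccharide (chr18:36725067-36726798, reverse strand, 1732 exonic bases), had the largest log2 fold change of the 10 genes in both genotypes. It was at 6.63, 4.43, 8.57 and 7.18 nRPKM in the WT GMP libraries and at 0.491, 0.582, 1.22 and 1.45 in the WT CMP libraries. Its KO levels were 5.12, 5.59, 9.70 and 8.59 in GMPs and 0.798, 1.59, 1.87 and 1.36 in CMPs. Every GMP library lay above every CMP library, in both genotypes. The log2 fold change, with its standard error (SE), was 2.86 (SE 0.36, adjusted p = 0.000206) in WT libraries, a 7.24-fold difference, and 2.42 (SE 0.33, adjusted p = 0.00100) in KO libraries. The gene was called under all 15 alternative settings in WT and all 15 in KO libraries. Tlr4, the lipopolysaccharide receptor itself, was at 3.55, 2.36, 2.45 and 2.66 nRPKM in WT GMPs and 1.09, 1.52, 0.907 and 1.11 in WT CMPs. In KO libraries it was at 2.36, 2.72, 2.26 and 2.47 in GMPs and 0.820, 1.14, 1.41 and 1.17 in CMPs. The groups did not overlap in either genotype, with log2 fold changes of 1.27 (SE 0.19, adjusted p = 0.000639) and 1.15 (SE 0.20, adjusted p = 0.00337). In KO libraries the call for Tlr4 was lost when KO GMP library 1, 2, 3 or 4 or KO CMP library 4 was left out, with adjusted p-values of up to 0.0154 from edgeR and log2 fold changes of 1.11 to 1.19 in these fits. Ly96, which encodes the MD-2 subunit that TLR4 needs, was not called: it was at 2.68 ± 0.134 nRPKM in WT GMPs and 3.27 ± 0.921 in WT CMPs (SD, n = 4), a log2 fold change of -0.27 (SE 0.25, adjusted p = 0.401).

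Of the lipopeptide receptors, Tlr1 rose in both genotypes, while Tlr6 and Tlr2 did not pass the rule. Tlr1 was at 1.85, 2.30, 1.20 and 1.32 nRPKM in WT GMPs and 0.729, 0.648, 0.324 and 0.377 in WT CMPs. In the KO libraries Tlr1 was at 1.56, 1.66, 1.60 and 1.56 in GMPs and 0.442, 0.571, 0.5678 and 0.299 in CMPs. The GMP and CMP ranges lay apart in both genotypes, with log2 fold changes of 1.71 (SE 0.31, adjusted p = 0.00209) and 1.81 (SE 0.25, adjusted p = 0.000959). Tlr6, the other partner of Tlr2, was at 2.62, 3.11, 2.55 and 3.06 nRPKM in WT GMPs and 1.89, 1.61, 1.35 and 1.59 in WT CMPs. Its ranges also lay apart, in KO libraries too (2.59 to 2.76 against 1.22 to 1.90), but its log2 fold changes of 0.84 (SE 0.15, adjusted p = 0.00188) and 0.80 (SE 0.19, adjusted p = 0.0168) were under the limit of 1. Tlr2, the shared partner, was at 8.95, 7.56, 7.97 and 8.26 nRPKM in WT GMPs and 5.51, 7.62, 5.68 and 7.67 in WT CMPs. These ranges overlapped, and the log2 fold change was 0.33 (SE 0.14, adjusted p = 0.0975) with a 95% interval of 0.01 to 0.64, and 0.35 (SE 0.18, adjusted p = 0.170) in KO libraries. Tlr1 and Tlr6 are close paralogs: 13.6% of the 50-base stretches of Tlr1 transcripts also occur in Tlr6 and 12.3% of those of Tlr6 in Tlr1. Reads of 50 bases from there have no unique place and were not counted, which lowers the level of both genes.

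Among the endosomal receptors, Tlr13, a sensor of bacterial ribosomal RNA, rose in WT GMPs from a very low level. It was at 0.146, 0.252, 0.160 and 0.152 nRPKM in WT GMPs (28, 62, 33 and 33 reads) and 0.0211, 0.0431, 0.0350 and 0.0786 in WT CMPs (4, 9, 9 and 13 reads). The log2 fold change was 2.03 (SE 0.48, adjusted p = 0.00790). The call rests on few reads and was held under 5 of 14 alternatives: it was lost without WT GMP library 2, 3 or 4 and without WT CMP library 1, 2 or 3, with adjusted p-values of 0.00614 to 0.0342 over all single libraries left out. It was also lost with a filter of at least 1 count in any library (adjusted p = 0.0103) and with all 26 libraries in 1 edgeR fit (adjusted p = 0.0402). In KO libraries, Tlr13 was at 0.0735, 0.107, 0.323 and 0.287 nRPKM in GMPs and 0.0716, 0.140, 0.0940 and 0.224 in CMPs, which overlapped, with a log2 fold change of 0.64 (SE 0.59, adjusted p = 0.424). Tlr7, a receptor for single-stranded RNA, lay the other way. It was at 0.220, 0.379, 0.189 and 0.315 nRPKM in WT GMPs and 0.417, 0.805, 0.430 and 0.607 in WT CMPs, and at 0.347, 0.344, 0.275 and 0.314 in KO GMPs and 0.564, 0.638, 0.593 and 0.726 in KO CMPs. The ranges did not overlap in either genotype (exact two-sided permutation test on the nRPKM, p = 0.0286 in each, the smallest p that 4 libraries against 4 allow), but its log2 fold changes of -1.01 (SE 0.32, adjusted p = 0.0311) and -0.93 (SE 0.23, adjusted p = 0.0188) did not pass the rule in edgeR. With DESeq2 Tlr7 was called in WT libraries (adjusted p = 0.00882), the lowest adjusted p over its alternatives, which reached 0.122.

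The other endosomal receptors did not pass. Tlr9, the receptor for unmethylated CpG DNA, was at 0.824 to 1.59 nRPKM in WT GMPs and 0.678 to 0.971 in WT CMPs, with a log2 fold change of 0.65 (SE 0.24, adjusted p = 0.0584). Tlr8, another receptor for single-stranded RNA, had 21 to 78 reads per WT GMP library and 0 to 27 per WT CMP library (log2 fold change 1.35, SE 0.80, adjusted p = 0.202). Tlr3, the receptor for double-stranded RNA, had 4 to 21 reads in WT GMPs and 0, 12, 45 and 34 in the WT CMP libraries (log2 fold change -1.003, SE 0.94, adjusted p = 0.418). The libraries of a group thus differed widely in Tlr3, and the 95% intervals of Tlr8 (-0.43 to 3.12) and Tlr3 (-3.10 to 1.09) included 0 and ran past a 2-fold difference, so the data show neither a difference nor its absence. An antisense gene, Gm45542, covers 569 of the 5207 exonic bases of Tlr3. The use of strand in counting is not given in the sources used here, so reads of both genes may have been counted on Tlr3, without a way to tell them apart. Beside these results, monocyte markers (Ly6c2, Ccr2, F13a1, Csf1r, Ms4a6c) summed to 1241 to 1563 nRPKM in WT GMPs and 258 to 354 in WT CMPs, and neutrophil markers (Ltf, Camp, Ngp, S100a8, S100a9, Ly6g) to 1511 to 3297 and 10.3 to 31.3. No marker of either list was at 0 in all libraries of a group, and their part in the receptor levels was not tested.

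**Figure D2:**
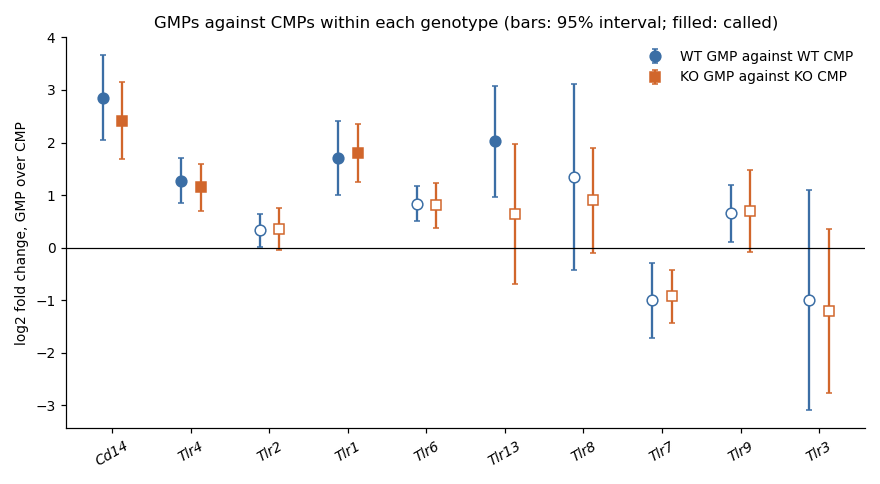
Log2 fold change of GMPs over CMPs for each gene (points) with its 95% interval (bars) in WT (circles) and KO libraries (squares); filled points passed the rule on adjusted p and fold change. Cd14, Tlr1 and Tlr4 are filled in both genotypes, Tlr13 in WT libraries, and Tlr7 and Tlr3 lie below 0.

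The other genes of the pathway were counted whole, in lists of 9 co-receptors and chaperones, 6 adaptors, 15 kinases and ubiquitin ligases, 7 transcription factors, 6 negative regulators and 3 further TLR genes (Tlr5, Tlr11 and Tlr12). Of the 46 genes, 44 were tested between WT GMPs and WT CMPs, and 9 rose and 2 fell. Of all genes tested, 12.8% were called and 6.28% were called as higher in GMPs. The median log2 fold change of the 44 genes was 0.29, beside -0.02 for all genes tested. Unc93b1, the chaperone of the endosomal receptors, rose from 53.5 ± 1.23 to 121 ± 10.3 nRPKM (SD, n = 4), a log2 fold change of 1.19 (SE 0.10, adjusted p = 1.15e-05). Lbp, whose protein carries lipopolysaccharide to CD14, rose too, with a log2 fold change of 2.04 (SE 0.13, adjusted p = 2.89e-06), as did Hsp90b1, the folding chaperone gp96, with 1.04 (SE 0.25, adjusted p = 0.00827). Cd36, a scavenger receptor that works with TLR2 and TLR6, fell, with a log2 fold change of -4.19 (SE 0.43, adjusted p = 4.62e-05). Among the adaptors, Pik3ap1 (2.14, SE 0.25, adjusted p = 0.000108) and Tirap (1.63, SE 0.28, adjusted p = 0.00127) rose. Myd88, the central adaptor, was at 31.9 ± 2.33 nRPKM in WT GMPs and 27.6 ± 2.02 in WT CMPs, a log2 fold change of 0.23 (SE 0.11, adjusted p = 0.108). The other genes that rose were the kinase gene Ikbke (2.07, SE 0.16, adjusted p = 5.88e-06), Traf3 (1.46, SE 0.31, adjusted p = 0.00513), the NF-kB subunit Rel (1.06, SE 0.24, adjusted p = 0.00600) and the inhibitory kinase-like Irak3 (1.73, SE 0.15, adjusted p = 1.31e-05). Irf7, an interferon regulatory factor downstream of TLR7 and TLR9, fell (-1.44, SE 0.14, adjusted p = 2.40e-05). No gene among the further TLR genes passed. In KO libraries 5 of 43 rose (Lbp, Unc93b1, Pik3ap1, Ikbke and Irak3) and 2 fell (Cd36 and Irf7). Of all genes tested in KO libraries, 8.42% were called and 4.04% were called as higher in GMPs. There Unc93b1 had a log2 fold change of 1.24 (SE 0.21, adjusted p = 0.00309), Ly96 of -0.59 (SE 0.36, adjusted p = 0.237) and Myd88 of 0.39 (SE 0.13, adjusted p = 0.0553).

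The receptors were then compared between WT BMMCs and the WT progenitors, a contrast in which cell type, culture, sex and sequencing run cannot be told apart. Of the 10 genes, 8 were higher in WT BMMCs than in WT GMPs and none lower, where 51.7% of all genes tested were called and 27.3% were called as higher. Against WT CMPs, 9 of the 10 were higher and none lower, where 57.5% of all genes were called and 29.6% as higher. The median log2 fold change of the 10 genes was 3.63 over GMPs and 3.46 over CMPs, with -0.00 and -0.01 for all genes tested. Both contrasts use the same WT BMMC libraries, so they are not independent of each other.

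Cd14 was the most abundant of the genes in WT BMMCs, at 119, 114, 147, 132 and 161 nRPKM (3553 to 5964 reads). Every BMMC value lay far above the WT GMP values, with a log2 fold change of 4.24 (SE 0.20, adjusted p = 1.84e-09) over GMPs and 7.08 (SE 0.30, adjusted p = 3.73e-10) over CMPs. Tlr4 was at 20.1, 20.2, 24.9, 28.9 and 25.4 nRPKM, 8.12-fold the level in GMPs (log2 fold change 3.02, SE 0.16, adjusted p = 6.07e-09). Ly96 was at 10.0 ± 3.39 nRPKM in WT BMMCs (SD, n = 5) and rose over GMPs, with a log2 fold change of 1.81 (SE 0.24, adjusted p = 2.03e-05). Lbp went the other way: it fell from 61.0 ± 2.09 nRPKM in WT GMPs to 1.70 ± 0.301 in WT BMMCs, a log2 fold change of -5.25 (SE 0.13, adjusted p = 2.10e-11).

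Tlr2 was at 53.7, 51.1, 72.0, 83.7 and 85.0 nRPKM in WT BMMCs, with a log2 fold change over GMPs of 2.98 (SE 0.17, adjusted p = 1.14e-08). The log2 fold changes of its partners were smaller. Tlr1 was at 3.96, 3.81, 4.44, 4.72 and 5.06 nRPKM, above all GMP values (log2 fold change 1.30, SE 0.20, adjusted p = 5.50e-05). Tlr6 was at 3.84, 4.87, 4.76, 5.45 and 5.48 nRPKM, also above all GMP values, with a log2 fold change of 0.69 (SE 0.13, adjusted p = 0.000322) over GMPs, under the limit of 1, and of 1.51 (SE 0.15, adjusted p = 7.35e-07) over CMPs, which was called. Cd36 rose to 187 ± 47.6 nRPKM (SD, n = 5) from 0.0676 ± 0.0241 in WT GMPs (SD, n = 4), a log2 fold change of 11.29 (SE 0.31, adjusted p = 4.04e-11).

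Over GMPs, the log2 fold changes were largest for the X-linked endosomal receptors, while over CMPs those of Cd14 and Tlr4 exceeded that of Tlr7. Tlr13 was at 25.95, 26.5, 37.99, 44.3 and 37.6 nRPKM in WT BMMCs, in 2139 to 3991 reads per library, against 28 to 62 reads in WT GMPs and 4 to 13 in WT CMPs. Its log2 fold change was 7.48 (SE 0.25, adjusted p = 1.40e-10) over GMPs and 9.53 (SE 0.31, adjusted p = 3.74e-11) over CMPs. Tlr8 was at 14.3, 13.4, 20.9, 23.9 and 19.5 nRPKM, with a log2 fold change of 6.08 (SE 0.33, adjusted p = 6.90e-09) over GMPs. Tlr7, the neighbour of Tlr8, was at 5.07, 5.36, 8.94, 9.05 and 8.23 nRPKM, with a log2 fold change of 4.62 (SE 0.27, adjusted p = 1.39e-08) over GMPs and 3.61 (SE 0.27, adjusted p = 4.57e-08) over CMPs. All values of these 3 genes in WT BMMCs lay above all values in the progenitors. Tlr3 was the lowest of the genes in WT BMMCs, at 0.815, 0.864, 1.09, 1.33 and 1.16 nRPKM, and rose over GMPs, with a log2 fold change of 4.32 (SE 0.41, adjusted p = 1.00e-06). Tlr9 was not called. It was at 1.09, 0.840, 1.03, 1.57 and 1.73 nRPKM in WT BMMCs, a range that overlapped with the GMP range of 0.824 to 1.59, and its log2 fold change was -0.10 (SE 0.25, adjusted p = 0.722), with a 95% interval of -0.65 to 0.45; over CMPs it was 0.53 (SE 0.23, adjusted p = 0.0475), with an exact two-sided permutation p of 0.0317 on the nRPKM.

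The make-up of the receptor RNA differed accordingly. The 4 TLR genes of the cell surface (Tlr1, Tlr2, Tlr4, Tlr6) summed to 14.2 to 17.0 nRPKM in WT GMPs, 8.27 to 11.4 in WT CMPs and 80.0 to 123 in WT BMMCs. The 5 endosomal ones (Tlr3, Tlr7, Tlr8, Tlr9, Tlr13) summed to 1.42 to 2.49, 1.12 to 1.87 and 47.0 to 80.1. The endosomal genes thus held 7.72 to 14.0% of the TLR sum in WT GMPs, 10.8 to 16.7% in WT CMPs and 36.1 to 39.7% in WT BMMCs. In KO GMPs the endosomal share was 10.4 to 13.9% and in KO CMPs 13.4 to 20.0%. In GMPs Tlr9 was the highest endosomal gene, in CMPs Tlr9 and Tlr7 overlapped at the top, and in WT BMMCs Tlr13, Tlr8 and Tlr7 led. Macrophage markers, at 1136 to 1426 nRPKM in sum in WT BMMCs and 34.7 to 37.3 in WT GMPs, and dendritic cell markers (Itgax, Cd209a, Siglech, H2-Ab1, Cd74, Flt3), at 710.2 to 1274 and 35.1 to 62.7, were higher in BMMCs beside the receptors. Of the dendritic cell markers, Cd209a, Siglech and Flt3 were at or under 0.182 nRPKM in every WT BMMC library. The part of macrophage or dendritic cell RNA in the receptor levels of these cultures was not tested.

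Among the other pathway genes, 18 of 43 tested rose and 5 fell between WT GMPs and WT BMMCs, with a median log2 fold change of 0.70; against WT CMPs 24 of 42 rose and 5 fell. The shares called in either direction lay near the 51.7% and, over CMPs, somewhat above the 57.5% of all genes called. Of all genes tested, 27.3% were called as higher than in GMPs and 29.6% as higher than in CMPs. The median log2 fold change of the list over CMPs was 1.12, beside -0.01 for all genes tested. The list itself was not tested against other genes. Unc93b1 was at 136 ± 23.8 nRPKM in WT BMMCs (SD, n = 5), and its log2 fold change over GMPs was 0.08 (SE 0.13, adjusted p = 0.575), while over CMPs it was 1.26 (SE 0.13, adjusted p = 1.19e-06). Ly86, whose product MD-1 pairs with the TLR4-like receptor CD180, fell over GMPs (log2 fold change -6.17, SE 0.20, adjusted p = 9.07e-11), and Cd180 itself rose (1.41, SE 0.13, adjusted p = 6.12e-07). Myd88 was at 55.2 ± 2.87 nRPKM and had a log2 fold change of 0.70 (SE 0.08, adjusted p = 6.63e-06) over GMPs and 0.91 (SE 0.09, adjusted p = 5.72e-07) over CMPs, both under the limit of 1. In the list of kinases and ubiquitin ligases, 7 of 15 rose over GMPs and none fell, led by Irak2 (3.40, SE 0.15, adjusted p = 1.35e-09), Tab2 (1.5, SE 0.12, adjusted p = 2.87e-07) and Map3k7 (1.30, SE 0.09, adjusted p = 4.45e-08). Of the negative regulators, 4 of 6 rose, led by Socs1 (6.01, SE 0.14, adjusted p = 2.10e-11) and Tnfaip3 (3.20, SE 0.17, adjusted p = 4.71e-09), and Sigirr fell (-1.42, SE 0.12, adjusted p = 4.30e-07). The transcription factor genes Irf5 (2.26, SE 0.11, adjusted p = 3.93e-09), Rel (1.90, SE 0.15, adjusted p = 1.42e-07) and Nfkb2 (1.84, SE 0.15, adjusted p = 1.99e-07) rose and Irf7 fell (-1.62, SE 0.16, adjusted p = 9.20e-07). Tlr12, a receptor for profilin, was at 1.28 ± 0.304 nRPKM in WT GMPs and 0.0846 ± 0.0573 in WT BMMCs and fell (-3.96, SE 0.35, adjusted p = 5.52e-07).

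**Figure D3:**
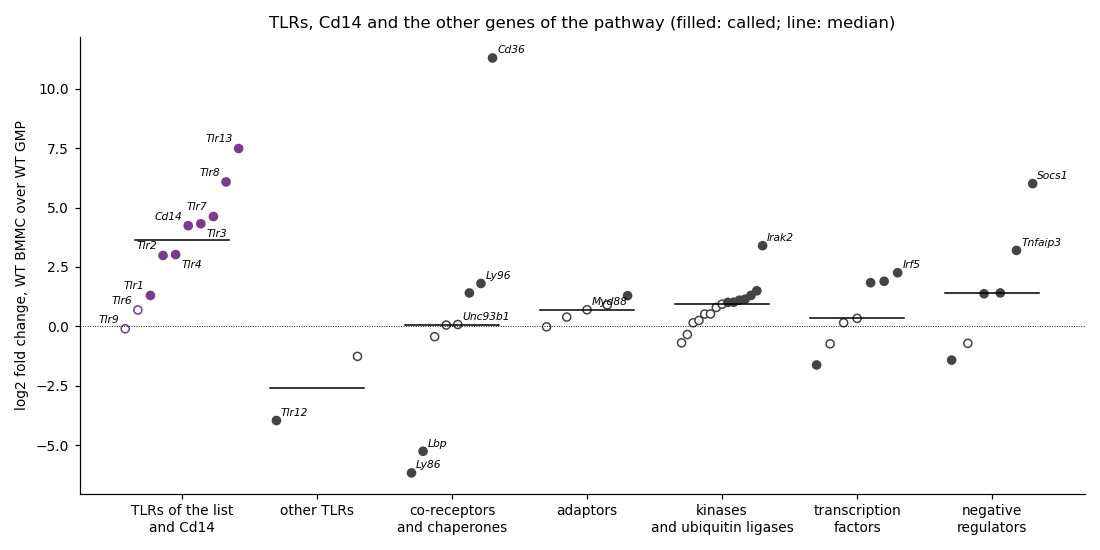
Log2 fold change of WT BMMCs over WT GMPs for the TLR genes of the list with Cd14 and for the 6 lists of other pathway genes (1 point a gene; filled, passed the rule; line, median of the list). The receptors reach from Tlr9 near 0 to Tlr13 at 7.48, while Unc93b1 and Myd88 lie below 1 and Ly86, Lbp and Tlr12 far below 0.

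In KO BMMC library 3, the library with the low macrophage marker sum, 9 of the 10 genes lay below all other 9 BMMC libraries, a position that 37.6% of 11816 genes expressed in BMMCs shared, and 1 gene, Tlr6, lay above them, as did 34.7% of those genes. Cd14 was at 15.2 nRPKM there and at 114 to 174 elsewhere (median 147), so that the library held 10.3% of the median. Tlr2 was at 5.22 nRPKM (7.24% of the median). The endosomal receptors were lowest: Tlr8 was at 0.937 nRPKM (4.49% of the median), Tlr7 at 0.457 (5.21%), Tlr13 at 2.46 (6.48%) and Tlr3 at 0.0781 (6.57%). Tlr9 had 0 reads in this library, a count that allows up to 3, whereas the other BMMC libraries had 58 to 172 reads each.

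The other genes lay closer to the rest of the BMMC libraries. Tlr4 was at 9.88 nRPKM in library 3, 39.6% of the median of the others, and Tlr1 at 2.43 (51.6%). Tlr6 was at 5.80 nRPKM, against 3.84 to 5.48 in the others. The endosomal share of the TLR sum was 14.4%, within the range of the progenitors, where the other BMMC libraries had 35.5 to 46.1%. Among the pathway genes, Unc93b1 was at 14.4 nRPKM (9.37% of the median), Cd36 at 6.23 (3.18%), Ticam2 at 1.60 (11.2%) and Ly96 at 5.09 (54.1%). Myd88, at 58.9 nRPKM (108%), Irak1 (102%), Irak4 (92.3%) and Rela (105%) lay within the range of the other libraries. Of all 46 pathway genes, 13 lay within that range, 22 below all other BMMC libraries and 11 above them. Among the 11816 genes expressed in BMMCs, 37.6% lay below and 34.7% above. Ticam2, Irak1, Irak4 and Rela, like the mast cell markers named next, were picked here after their values were seen. The 6 macrophage markers were at 6.15 to 16.5% of their medians, and of the mast cell markers Cma1 was at 578%, Cpa3 at 275%, Fcer1a at 248% and Hdc at 63.8%. The summed dendritic cell markers were at 6.44% of their median, the monocyte markers at 15.5% and the neutrophil markers at 22.2%, beside 9.26% for the macrophage markers. Not all markers in these sums were low. Of the monocyte markers, F13a1 was at 13.9 nRPKM, 721% of its median and within the range of the other libraries. Of the neutrophil markers, Camp (61.5%), Ngp (50.8%) and Ly6g (58.2%) lay within that range too. Of the dendritic cell markers so did Cd209a and Siglech, both at 0 there. These values describe a single library and have no replicate, and the part of RNA of these other cell types in them was not tested.

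**Figure D4:**
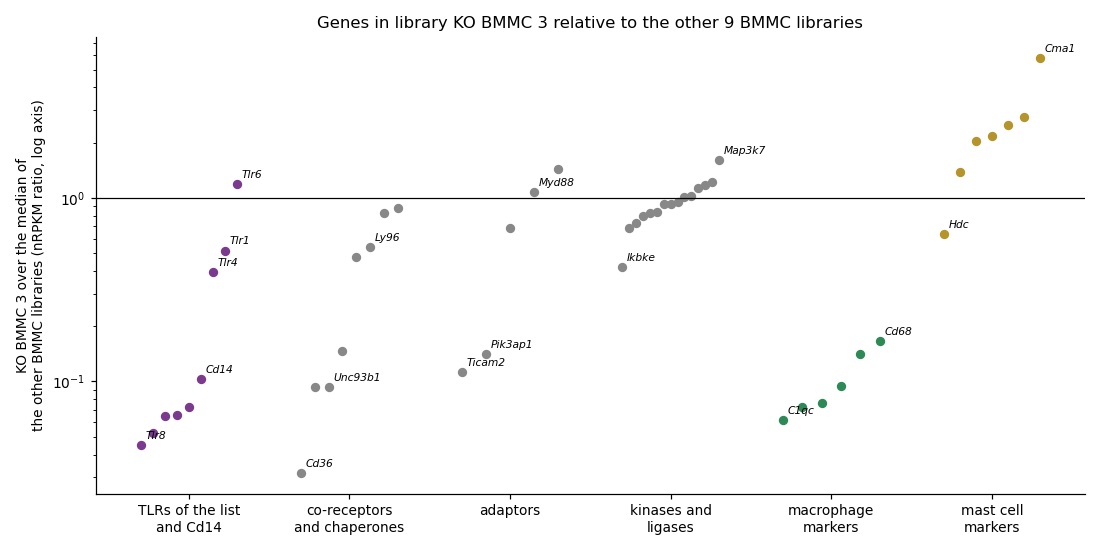
Ratio of the nRPKM in KO BMMC library 3 to the median of the other 9 BMMC libraries (log axis) for the receptors, pathway lists, and macrophage and mast cell markers, 1 point a gene, for genes with a median of at least 1 nRPKM; Tlr9, at 0 in library 3, is not drawn. Most receptors and Unc93b1 lie near the macrophage markers, while Tlr6, Myd88 and most kinases lie near 1 and most mast cell markers above it.

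The last comparisons asked whether loss of Prss57 changed the receptors within a cell type. None of the 10 genes was called between KO and WT GMPs, CMPs or BMMCs in edgeR, where 0.00681%, 0.0067% and 0.0% of all genes tested were called (in GMPs and CMPs that is the single gene Prss57), and the lowest adjusted p of any of them was 0.9999. At an unadjusted p under 0.05, edgeR gave 0 of the 10 genes in GMPs, 1 (Tlr13) in CMPs and 0 in BMMCs, and limma voom and DESeq2 called none of them. Among all genes tested, 119 of 14689 in GMPs, 76 of 14916 in CMPs and 332 of 13938 in BMMCs were under that unadjusted p in edgeR. In GMPs the log2 fold changes of KO over WT ran from -0.17 (Tlr4) to 0.21 (Tlr7). The 95% interval was -0.45 to 0.68 for Cd14, -0.50 to 0.17 for Tlr4 and -0.30 to 0.22 for Tlr2, so that 2-fold differences lay outside it for these genes. The GMP interval of Tlr13 was wider, at -0.94 to 1.23.

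In CMPs the log2 fold changes were 0.56 for Cd14 (95% interval -0.38 to 1.5), -0.05 for Tlr4 (-0.57 to 0.48) and -0.06 for Tlr2 (-0.49 to 0.37). Tlr13 was at 0.0716, 0.140, 0.0940 and 0.224 nRPKM in KO CMPs, in 19, 16, 25 and 37 reads, and at 0.0211, 0.0431, 0.0350 and 0.0786 in WT CMPs, in 4, 9, 9 and 13 reads. The ranges overlapped in a single pair of libraries, KO CMP 1 and WT CMP 4, and the log2 fold change was 1.54 with a 95% interval of 0.27 to 2.81 and an exact two-sided permutation p of 0.0571 on the nRPKM; the adjusted p from edgeR was 0.9999. In an interaction fit over the 16 progenitor libraries, the genotype effect on Tlr13 in GMPs minus that in CMPs was -1.40 (95% interval -2.997 to 0.20). None of the 10 genes was called in edgeR, where 0.0% of all genes tested were called. At an unadjusted p under 0.05 edgeR found none of the 10 genes, where 169 of all 15900 genes tested were under it. Neither limma voom nor DESeq2 called any of the 10.

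In BMMCs, leaving out library 3 turned the sign of the genotype difference for Cd14, Tlr2, Tlr4, Tlr8 and Tlr13, from below to above 0, and narrowed their intervals. With all 10 libraries, Cd14 was at 127 ± 67.1 (SD, n = 5) nRPKM in KO and 135 ± 19.5 (SD, n = 5) in WT, a log2 fold change of -0.09 with a 95% interval of -1.17 to 0.99. Without library 3, KO BMMCs were at 155 ± 27.8 (SD, n = 4) and the log2 fold change was 0.20 (-0.10 to 0.50). Tlr2 went from -0.23 (-1.44 to 0.98) to 0.07 (-0.36 to 0.50), Tlr4 from -0.01 (-0.61 to 0.60) to 0.19 (-0.13 to 0.50), Tlr8 from -0.04 (-1.37 to 1.29) to 0.27 (-0.16 to 0.69) and Tlr13 from -0.02 (-1.27 to 1.24) to 0.28 (-0.12 to 0.68). Without that library all 10 genes had a log2 fold change above 0, from 0.02 (Tlr6) to 0.51 (Tlr3, 95% interval 0.12 to 0.90), and none was called by edgeR, with adjusted p-values of 0.597 to 0.980. The interval of Tlr1 also lay above 0 (0.01 to 0.59). On the nRPKM, Tlr3 then gave an exact two-sided permutation p of 0.0476, unadjusted and the only one of the 10 genes under 0.05. Macrophage marker sums were 1136 to 1426 nRPKM in WT BMMCs, with a median of 1221. In KO BMMCs with library 3 included they were 131 to 1778, with a median of 1581, and the lowest was that of library 3. The part of macrophage RNA in these differences was not tested. Of the other pathway genes tested, 43 in GMPs, 42 in CMPs and 41 in BMMCs, edgeR called 0, 0 and 0 between the genotypes. At an unadjusted p under 0.05 it gave 0, 0 and 0 of them, and limma voom called 0 and DESeq2 0. Among all genes tested, 119 of 14689, 76 of 14916 and 332 of 13938 were under that unadjusted p in edgeR.

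**Figure D5:**
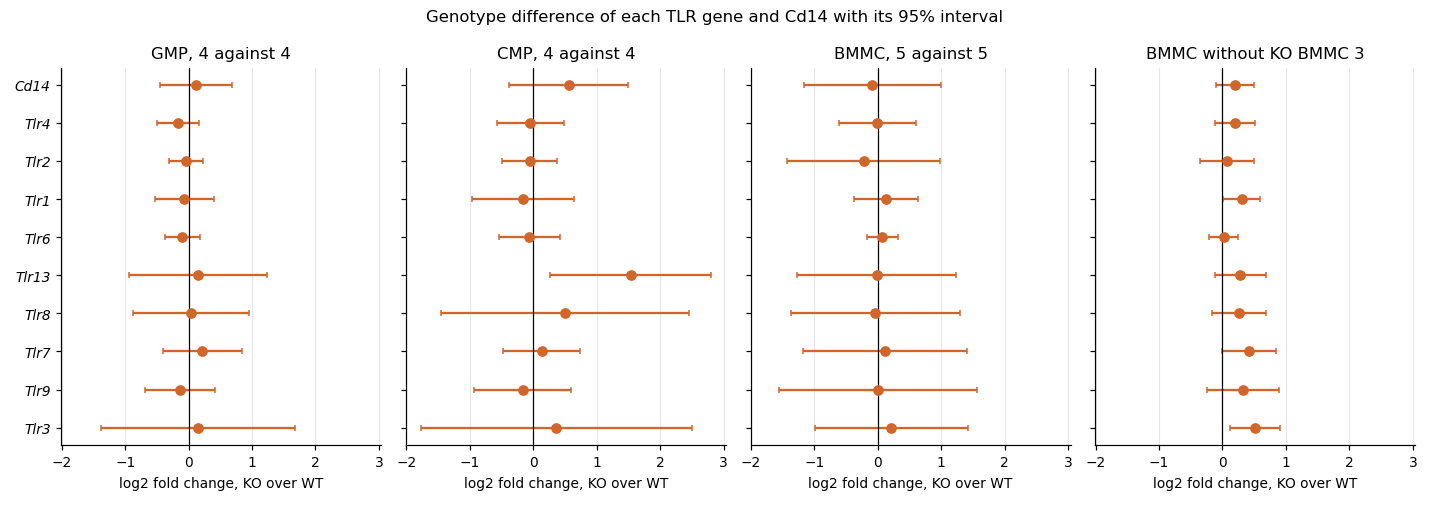
Log2 fold change of KO over WT for each gene with its 95% interval in GMPs, CMPs, BMMCs, and BMMCs without KO BMMC library 3. Nearly all intervals include 0, those of Tlr13 in CMPs and of Tlr1 and Tlr3 in BMMCs without library 3 do not, and the BMMC intervals narrow once library 3 is left out.

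Genes with the most similar profile over the 26 libraries were found for all 10 receptors, each of which reached a mean of at least 1 nRPKM in some group. Likeness was measured as the root mean square difference between centred log2(nRPKM + 0.1) values, among 13488 genes that reach that level. For Cd14 the nearest were Adgre1 (0.32), Nrp2 (0.46) and Cmklr1 (0.55), the first of which encodes the macrophage antigen F4/80. For Tlr2 they were Ceacam15 (0.28), Lipa (0.30) and Litaf (0.31), and for Tlr4 Pld3 (0.31), Ctsb (0.34) and Rab20 (0.39), among them the lysosomal genes Lipa and Ctsb. For Tlr13 they included Dpep2 (0.41) and Stac2 (0.49), for Tlr8 they were Ptgfrn (0.46), Flrt3 (0.49) and Irf4 (0.50) and for Tlr7 Rab3il1 (0.29), Timp2 (0.35) and Kynu (0.37). For Tlr1 they were Atp6v0a1 (0.34), Pfkfb4 (0.35) and Gm49759 (0.38), for Tlr6 B4galt1 (0.19), Glmp (0.20) and Naip5 (0.20), for Tlr9 Kbtbd11 (0.32), Phactr2 (0.33) and Zfp326 (0.34) and for Tlr3 B3gnt3 (0.43), Btg2 (0.43) and Itsn1 (0.44). No receptor was among the nearest genes of another; the closest pair of receptors was Tlr2 and Tlr3, at 0.49. With a pseudocount of 1, 6 of the 30 genes so found were named again, so the names depend on how low values are treated.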

How the data were processed

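RNA was sequenced as 50-base single-end reads from stranded total RNA libraries. The authors aligned reads to GRCm38 with GSNAP and deposited, per gene and library, a count of uniquely aligned reads and an RPKM normalized by a size factor (nRPKM). The use of strand in counting is not given in the sources used here. Groups were taken from the labels. The 10 genes and all gene lists were chosen with earlier results of these data known. Counts were tested here with edgeR 4.0.16 (quasi-likelihood, robust, TMM normalization, low-count filter by group size; R 4.3.3), each comparison in its own groups and the interaction in the 16 progenitor libraries. Calls needed at least a 2-fold change and a Benjamini-Hochberg adjusted p under 0.01. Alternatives were limma 3.58.1 voom, the test the study used, DESeq2 1.42.0, other filters and thresholds, a replicate block, a fit of all 26 libraries and leaving out each library. Single genes were also compared on nRPKM by exact permutation (70 tests, unadjusted, scipy 1.17.1). Pathway genes named between GMPs and CMPs are up to 5 with the largest change among those called in each list, with Ly96, Unc93b1 and Myd88. For WT BMMCs against the progenitors only some of the genes given by this rule are named. A gene with a profile like that of a receptor is not reported here. Of these tests, only the main edgeR fit was tried on simulated counts first, for WT GMPs against WT CMPs and for KO against WT BMMCs.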

Additional observations from a re-analysis of the deposited data

Results flagged for a closer look

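Each gene was screened in each group for a highest or lowest library whose gap to the next exceeded Dixon's 95% critical value, over 60 combinations of gene and group, of which chance exceeds the value in about 5%. A single combination did: Tlr13 in WT GMPs, where WT GMP library 2 was at 0.252 nRPKM and the other 3 libraries at 0.146 to 0.160, a gap of 0.868 of the group's range. Without that library the log2 fold change of Tlr13 between WT GMPs and WT CMPs was 1.81 (adjusted p = 0.0342 in edgeR) and the gene was not called. The gaps were taken within a group and on the nRPKM, which cannot fall below 0, so a low library is hard to flag beside widely spread high ones. On that scale KO BMMC library 3 exceeded the value for none of the genes, although 9 of the 10 lay below all other BMMC libraries there.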

How the results depend on the processing

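Tlr3, Tlr8 and Tlr13 had the largest standard errors of the 10 genes in every comparison among progenitors, with 0 to 78 reads per library, in which counting error and differences between libraries were not separated. Of the calls on receptors, Tlr13 between WT GMPs and WT CMPs and Tlr4 between KO GMPs and KO CMPs depended on single libraries. At an adjusted p under 0.05 with no limit on the fold change, 5 of the 10 receptors were called between KO GMPs and KO CMPs (Cd14, Tlr1, Tlr4, Tlr6 and Tlr7). Over all genes 3222 of 14959 were called there. Between WT GMPs and WT CMPs these receptors and Tlr13 were called, beside 5664 of 14967 genes. Of all genes, 2 of 14689 were called between KO and WT GMPs and 12030 of 14754 between WT BMMCs and WT GMPs. Between KO GMPs and KO CMPs, 1259 genes were called, 2156 by DESeq2, 2307 with all 26 libraries in 1 fit and 785 to 2266 with 1 library left out. Between KO and WT GMPs DESeq2 called 2 genes, the filter of 10 counts in every library left 0, and leaving out 1 library gave 1 to 2; between KO and WT CMPs these were 3 and 0 for DESeq2 and the filter. That filter removes Prss57 by its construction. Signs of small genotype differences turned. Leaving out 1 library gave KO against WT log2 fold changes in GMPs of -0.085 to 0.016 for Tlr2, -0.20 to 0.43 for Tlr13 and -0.052 to 0.26 for Cd14, in CMPs of -0.15 to 0.017 for Tlr2 and -0.18 to 0.10 for Tlr4, and in BMMCs of -0.43 to 0.070 for Tlr2, -0.15 to 0.19 for Tlr4, -0.25 to 0.28 for Tlr13, -0.23 to 0.20 for Cd14, -0.0052 to 0.30 for Tlr1, -0.0013 to 0.12 for Tlr6 and -0.24 to 0.27 for Tlr8. In GMPs the sign also turned for Tlr1 (-0.18 to 0.14), Tlr3 (-0.12 to 0.72), Tlr8 (-0.17 to 0.42) and Tlr9 (-0.29 to 0.0064). In CMPs it also turned for Tlr1 (-0.36 to 0.039), Tlr3 (-0.24 to 0.81), Tlr6 (-0.18 to 0.023) and Tlr9 (-0.48 to 0.0018). In BMMCs it also turned for Tlr7 (-0.085 to 0.41) and Tlr9 (-0.23 to 0.32). For Tlr9 between WT BMMCs and WT GMPs the range was -0.25 to 0.029. Limma voom gave -0.18 for Tlr13 between KO and WT GMPs and -0.20 for Tlr3 between KO and WT BMMCs, and the filter of 10 counts gave 0.00012 for Tlr4 between KO and WT BMMCs. By the exact test, 1 receptor differed between KO and WT BMMCs without KO BMMC library 3, unadjusted. A pseudocount of 1 kept 6 of the 30 genes with similar profiles. The causes of these changes were not tested.

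Replicate numbers are shared between groups in the labels, and in no comparison did every same-numbered pair correlate above 0.1 or every library correlate best with its own number, so the numbers were not taken as pairs. The correlations of same-numbered libraries ran from -0.229 to 0.113 between KO and WT GMPs, -0.134 to 0.249 between KO and WT CMPs, where 3 of 4 libraries correlated best with their own number, -0.150 to 0.172 between KO and WT BMMCs, 0.00500 to 0.212 between WT GMPs and WT CMPs and 0.0213 to 0.446 between KO GMPs and KO CMPs. With a replicate block, 2000 genes were called between WT GMPs and WT CMPs (1918 without it) and 1311 between KO GMPs and KO CMPs (1259 without it), Tlr13 between WT GMPs and WT CMPs was no longer called (adjusted p = 0.0144 in edgeR), and it had a log2 fold change of -0.041 between KO and WT GMPs, and Tlr3 one of -0.049 between KO and WT BMMCs.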
